A study of Mus musculus with 14 samples.

Results

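The constitutive proteasome genes were followed in mouse CD4+ T cells grown for 3 days in 7 culture media. They were chosen by name: every gene of the tables whose symbol starts with Psma, Psmb, Psmc, Psmd, Psme, Psmf or Psmg and a number, without the interferon-inducible catalytic subunits Psmb8, Psmb9 and Psmb10 and without pseudogenes. This gave 46 of 23133 genes. Of these, 44 reached a mean of 1 FPKM in some medium, and 11451 genes of the series passed the same minimum. FPKM counts fragments per length of transcript, scaled to the size of the library. The testis subunit Psma8, with a highest mean of 0.124 FPKM, and the thymic subunit Psmb11, with 0.0237 FPKM, did not pass it. Psme1 and Psme2, which code for the interferon-induced activator PA28αβ, are set apart, so counts of members below are over 42 genes. The name rule also takes Psmc3ip, the meiotic recombination factor Hop2, which is not a proteasome subunit; it is among the 42 and is described on its own.

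The study measured RNA by sequencing in 14 libraries, 2 for each medium, from naive CD4+ T cells of C57BL/6 mice sorted as CD62L high, CD44 low and CD25 negative. All 7 media held plate-bound anti-CD3 and anti-CD28 antibodies at 10 µg/ml each. Th0 held no cytokine, with antibodies against IL-2, IL-4 and IFN-γ. Th1 held IL-12 at 20 ng/ml with anti-IL-4, and Th2 held IL-4 at 20 ng/ml with anti-IFN-γ. The iTreg medium held IL-2 (50 U/ml), TGF-β (20 ng/ml) and anti-IFN-γ. Th17_b held IL-6 (20 ng/ml), TGF-β (2 ng/ml), anti-IFN-γ and anti-IL-2. Th17_23 held IL-1β at 20 ng/ml, IL-6 at 20 ng/ml and IL-23 at 50 ng/ml, with antibodies against IFN-γ, IL-2 and TGF-β. IL27_plus_TGF_beta held TGF-β (2 ng/ml) and IL-27 (20 ng/ml), with antibodies against IL-4, IL-2 and IFN-γ. Every medium but IL27_plus_TGF_beta therefore differs from Th0 in the blocking antibodies as well as in the cytokines. Anti-IFN-γ is listed for every medium but Th1. Anti-IL-2 is not listed for Th1, Th2 and iTreg. Anti-IL-4 is not listed for Th2, iTreg, Th17_b and Th17_23, and Th17_23 adds anti-TGF-β.

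The proteasome degrades proteins that carry ubiquitin chains. Its 20S core is a barrel of stacked rings, with outer rings of α subunits that form the gate and inner rings of β subunits, among them the proteolytic sites β1, β2 and β5. The 19S particle caps the core, binds ubiquitin, removes it through its lid, and unfolds the substrate with a ring of ATPases in its base. PA28αβ is another cap, which opens the core without ATP, and in cells exposed to interferon it accompanies the inducible catalytic subunits. Activated T cells raise proteasome genes and depend on the proteasome as they grow and divide.

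The libraries were alike in breadth, with 10262 to 10630 genes at 1 FPKM or more. Relative to Th0 replicate 1, sequencing depth was 0.935 to 1.06 in replicate 1 and 0.748 to 0.832 in replicate 2 of the media. T cell markers summed to 1086 to 1766 FPKM, B cell markers to 0.236 to 1.93 FPKM and CD8 T cell markers to 2.71 to 7.78 FPKM, of which Cd8b1 made up nearly all. Natural killer cell markers summed to at most 0.0945 FPKM and erythroid markers to at most 0.565 FPKM. Dendritic cell markers ran from 0.147 to 56.0 FPKM, nearly all of it Batf3, which was 34.1 and 55.5 FPKM in Th2. Foxp3 reached 96.5 and 104 FPKM in iTreg, Il17a 286 and 448 FPKM in Th17_b, Gata3 93.3 and 117 FPKM in Th2 and Tbx21 32.5 and 32.3 FPKM in Th1, in each case far above the Th0 libraries. Nothing in the labels says that replicates came from separate mice, and the spread that the p-values rest on may be technical.

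The proteasome genes were abundant in all 7 media, and within each group of subunits the levels lay close together. Averaged over media, the 7 α genes ran from 82.8 FPKM for Psma5 to 182 FPKM for Psma2, and the 7 β genes from 82.5 FPKM for Psmb6 to 195 FPKM for Psmb4. The 6 ATPase genes ran from 59.0 FPKM for Psmc2 to 84.4 FPKM for Psmc1, and the 8 lid genes from 51.3 FPKM for Psmd12 to 110 FPKM for Psmd8. Assembly chaperones were lower, from 6.69 FPKM for Psmd9 to 44.1 FPKM for Psmg4. The median of all 11451 tested genes was 11.1 FPKM.

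Across media the members moved by small factors, and most of them shared the lowest and the highest medium. The highest mean over the lowest was between 1.19 for Psme4 and 3.37 for Psma4, with a median of 1.83, beside a median of 1.93 over all tested genes. Of the 42 members, 35 had their lowest mean in iTreg, which was the lowest medium for 33.8% of all tested genes, and 34 had their highest in Th17_23, which was the highest for 26.3%. Among the exceptions, Psmb1, Psmc6, Psmd10 and Psmg4 were lowest in Th17_b, Psmd9 in Th2, Psmd8 in IL27_plus_TGF_beta and Psme4 in Th0. In the iTreg libraries 1 member in each was above its own mean over the 14 libraries, against 39 and 40 members in the Th17_23 libraries. A test over the 7 media called 41 of 42 members, but it also called 93.2% of all tested genes, so that count says nothing particular about them. The member it did not call was Psmd8, a lid subunit, with an adjusted p of 0.080 (limma).

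**Figure D1:**
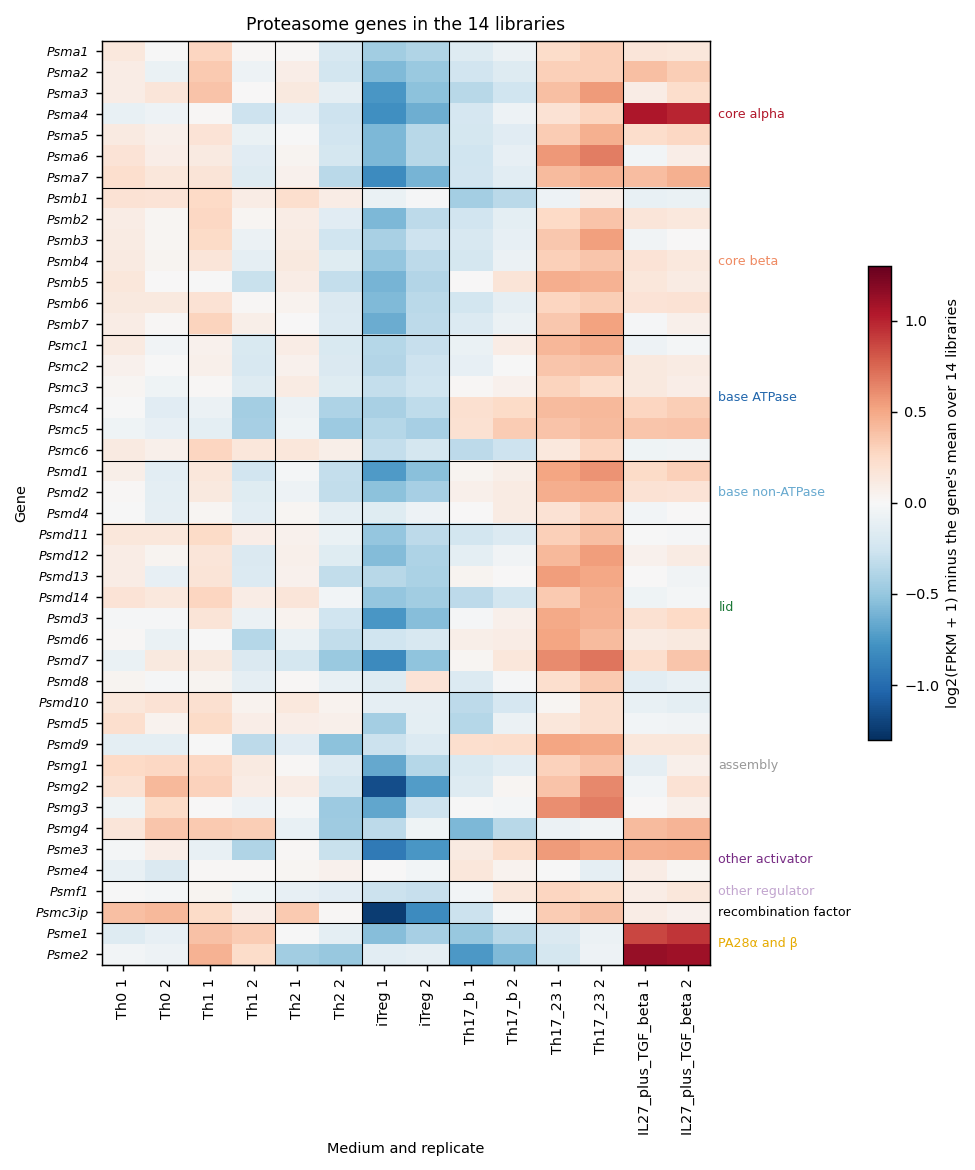
Heat map of log2(FPKM + 1) minus the gene's own mean over the 14 libraries, with the 44 genes in rows by role and the libraries in columns by medium and replicate; blue is below and red above the mean. The iTreg columns are blue and the Th17_23 columns red for nearly every subunit, while Psma4, Psme1 and Psme2 are deep red in IL27_plus_TGF_beta.

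Summed over the 14 genes of the 20S core, the level was 1279 and 1445 FPKM in iTreg, 2037 and 1938 FPKM in Th0, and 2330 and 2480 FPKM in Th17_23. The 17 genes of the 19S particle summed to 867 and 944 FPKM in iTreg, 1196 and 1135 FPKM in Th0, and 1519 and 1565 FPKM in Th17_23. These 3 media did not overlap in either sum. In Th17_b the core summed to 1590 and 1727 FPKM, below both Th0 libraries, while the 19S particle summed to 1129 and 1198 FPKM, about the Th0 range. FPKM are relative to each library, and in bulk samples fewer cells of a type and less RNA per cell cannot be told apart.

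Replicates of the same medium also differed in a shared direction. All 42 members were lower in replicate 2 than in replicate 1 of Th1, with a median log2 difference of -0.26. In Th2 41 of 42 were lower in replicate 2, with a median of -0.25. All tested genes had medians of -0.02 in Th1 and -0.01 in Th2, and 55.0% and 52.4% of them were lower in replicate 2. In iTreg 38 of 42 members were higher in replicate 2, with a median of 0.16 beside 0.09 for all genes. In Th17_b 39 of 42 were higher, with a median of 0.10 beside 0.07. Of all tested genes 66.0% were higher in replicate 2 of iTreg and 68.9% in that of Th17_b, so these shifts were partly shared by all genes. The IL27_plus_TGF_beta replicates were closest, with a median of 0.02. These differences between replicates of Th1 or of Th2 are larger than the median change of either medium from Th0.

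**Figure D2:**
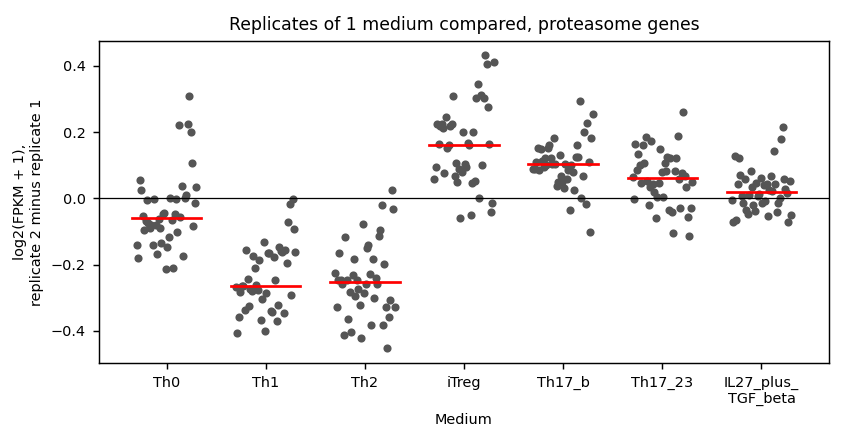
Difference in log2(FPKM + 1) between replicate 2 and replicate 1 of each medium for the 42 genes without Psme1 and Psme2, 1 point a gene, with the median as a red line. Every point of Th1 lies below 0, and most points of iTreg and Th17_b lie above it.

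In the iTreg medium, proteasome RNA was lower than in Th0 across nearly all subunits. limma called 37 of 42 members lower and 0 higher, against 41% of all tested genes called lower and 22.7% called higher. The median log2 change of the members was -0.51, beside -0.13 for all tested genes. All 14 core genes, all 6 ATPases, 6 of 8 lid genes and 6 of 7 assembly chaperones fell. The 5 members that were not called were Psmd4, Psmd6, Psmd8, Psmd9 and Psme4, with changes between -0.19 and 0.13, and at an unadjusted p under 0.05 limma found 0 members higher. Scaling each library to the same median moved the median of all genes to -0.02 and left that of the members at -0.39, and quantile normalization left it at -0.32. Here and below, shares of all tested genes are from the unscaled fit to all 14 libraries. Counts from other fits have no such share beside them, so their moves cannot be read as particular to the members. Without iTreg replicate 1, which is the lower of the pair, the count called lower was 24.

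Th17_23 showed the opposite picture, with rises in most genes of the 19S particle. Here 23 of 42 members were called higher and 0 lower, where 26.6% of all tested genes were higher and 23% lower, and the median change was 0.31 beside 0.03 for all genes; quantile normalization left it at 0.19. In the 19S particle 14 of 17 genes rose, with a median of 0.42, and in the core 5 of 14 rose, with a median of 0.31; the difference between these shares was not tested. At an unadjusted p under 0.05, 28 members were higher and 1 was lower. The share of all tested genes at an unadjusted p is not given for this or any other comparison, so these counts have no background. The count was 8 without Th17_23 replicate 2, 10 without Th0 replicate 2 and 11 without Th0 replicate 1.

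Th17_b, which shares IL-6 with Th17_23 and has TGF-β in place of IL-1β and IL-23, was nearer to Th0, with the core genes somewhat lower and the 19S genes about level. Of 42 members 12 were called lower and 3 higher, against 29.2% and 25.5% of all tested genes, which is no more than the background for the falls. The core genes had a median change of -0.24, beside -0.03 for all tested genes. Of the 14 core genes 4 were called lower, which is near the share of all tested genes. The 19S genes had a median change of 0.04, with 3 lower and 1 higher of 17. Set directly against Th17_23, 37 of 42 members were lower in Th17_b and 0 higher, where 32.5% of all tested genes were lower and 23.5% higher; all 14 core genes and 14 of 17 of the 19S particle were among them, and the median change was -0.47 beside -0.07, or -0.31 with quantile normalization. At an unadjusted p under 0.05, 38 were lower and 1 was higher. The count of 37 was 16 without Th17_b replicate 1 and 16 without Th17_23 replicate 2; the 12 against Th0 became 5 without Th17_b replicate 1 and 6 without Th0 replicate 1, and the 3 became 0 or 1 without any of the 4 libraries.

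IL27_plus_TGF_beta left most subunits near their Th0 level. Of 42 members 6 were higher and 2 lower, below the 22% and 28.9% of all tested genes, and the median change was 0.06, or 0.11 with libraries scaled to the same median. Against iTreg, which holds TGF-β at a higher dose, 35 of 42 were higher and 0 lower, with 38.6% and 28% of all tested genes, and a median of 0.54 beside 0.08. Against Th17_b 12 of 42 were higher and 0 lower, with 16.7% and 22% of all tested genes; 9 of these were among the 14 core genes and 2 among the 17 of the 19S particle. At an unadjusted p under 0.05, 36 were higher and 0 lower than in iTreg, and 15 higher and 0 lower than in Th17_b. The 12 became 2 without Th17_b replicate 1, 3 without IL27_plus_TGF_beta replicate 2, 4 without IL27_plus_TGF_beta replicate 1 and 7 without Th17_b replicate 2. The 6 against Th0 became 1 without Th0 replicate 1 or IL27_plus_TGF_beta replicate 2 and 3 without Th0 replicate 2, and 13 when libraries were scaled to the same median; the 2 lower calls were lost without any 1 of the 4 libraries.

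Few members were called in Th1 and Th2. In Th1 limma called 0 of 42 higher and 0 lower, where 6.41% of all tested genes were higher and 7.6% lower; at an unadjusted p under 0.05, 1 member was higher and 1 lower. In Th2 it called 0 higher and 1 lower, Psmg4, where 5.64% of all tested genes were higher and 12.3% lower. At an unadjusted p under 0.05, 1 was higher and 5 were lower. The changes in Th2 were small but mostly negative, in 39 of 42 members, with a median of -0.14 beside -0.07 for all tested genes. With quantile normalization or median scaling 35 were negative and 7 positive. The share of all tested genes with a negative change is not given. The count of lower members in Th2 was 5 without Th2 replicate 1 and 0 without Th2 replicate 2 or either Th0 library, and scaling to the same median gave 1 higher and 1 lower, quantile normalization 1 higher and 2 lower. Leaving Psmc3ip out of the members changes no count by more than 1.

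**Figure D3:**
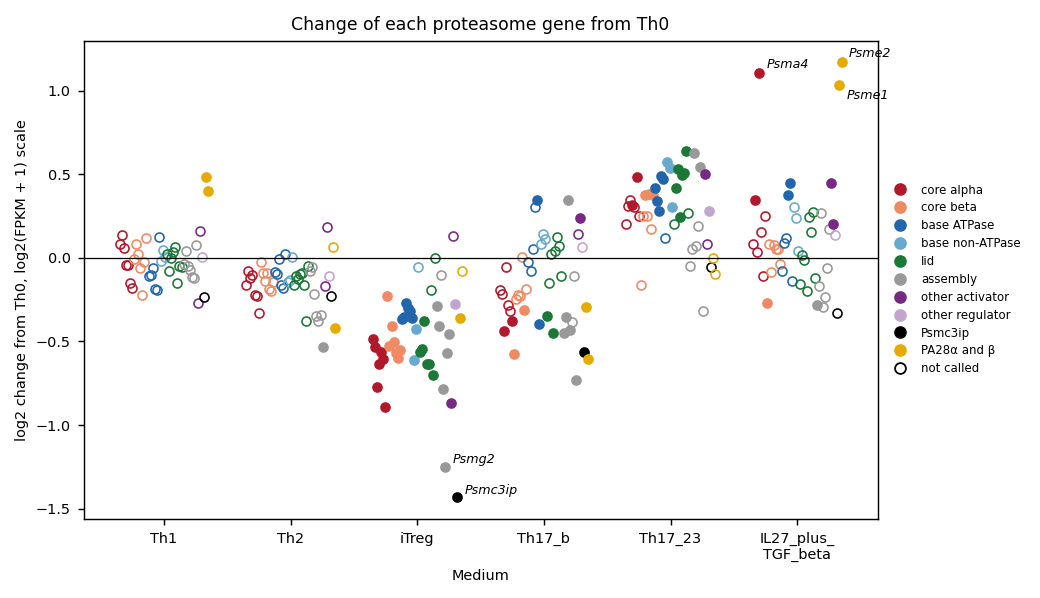
Log2 change of each of the 44 genes from Th0 on the log2(FPKM + 1) scale in the 6 other media, coloured by role; filled points were called at an adjusted p under 0.05. In iTreg nearly all points are filled and below 0, in Th17_23 most lie above 0, and in IL27_plus_TGF_beta Psma4 stands with Psme1 and Psme2 near 1.1 while the other members lie under 0.5.

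Summed markers of myeloid cells were highest in iTreg and lowest in Th17_23. The 6 listed markers came to 151 and 137 FPKM in iTreg, 63.6 and 67.5 FPKM in Th0 and 25.1 and 31.7 FPKM in Th17_23. They were 97.1 and 98.4 FPKM in IL27_plus_TGF_beta and 34.1 and 38.6 FPKM in Th2, on either side of Th0; the median log2 change of the members against Th0 was 0.06 in the former and -0.14 in the latter. Ctss, which codes for cathepsin S, a protease that several immune cells make, held nearly all of this, with 148 and 136 FPKM in iTreg and 24.6 and 30.9 FPKM in Th17_23. The defining marker Lyz2 was listed at 0 in all 14 libraries, Cd14 was at or under 0.171 FPKM and Csf1r at or under 0.103 FPKM, so these defining markers were at or near 0. Itgam was 2.55 and 0.899 FPKM in iTreg and at or under 0.592 FPKM in every other medium. Adgre1, also listed, went the other way from the sum in Th2, where limma called it higher than in Th0 by 1.58 (SE 0.12, adjusted p = 2.4e-05). Adgre1 was not called in iTreg (0.16) or Th17_23 (0.03). In iTreg limma called Ctss higher than in Th0 by 1.115 (SE 0.10, adjusted p = 2.2e-05). It also called Itgam higher there, by 0.77 (SE 0.22, adjusted p = 0.013). In Th17_23 it called Ctss lower, by 1.21 (SE 0.10, adjusted p = 2e-05), and did not call Itgam (-0.05). The part of other cells that express Ctss in the results above was not tested.

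The α subunits form the outer rings of the core. All 7 α genes were lower in iTreg than in Th0 and lower in Th17_b than in Th17_23. Psma7 (α4) had the largest fall of the 7 in iTreg. It stood at 92.9 and 108 FPKM in iTreg, 191 and 182 FPKM in Th0, 138 and 149 FPKM in Th17_b, and 218 and 225 FPKM in Th17_23. The iTreg libraries lay below all others, and the change from Th0 was -0.89 (SE 0.14, adjusted p = 0.00048). In IL27_plus_TGF_beta it was 216 and 227 FPKM, higher than in iTreg by 1.14 (SE 0.14, adjusted p = 8.2e-05) and than in Th17_b by 0.63 (adjusted p = 0.0068), the latter call being lost when Th17_b replicate 1 or IL27_plus_TGF_beta replicate 2 was left out (adjusted p = 0.067 and 0.064).

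Psma6 (α1) and Psma3 (α7) had the largest differences between the Th17 media. Psma6 was 109 and 121 FPKM in Th17_b and 194 and 208 FPKM in Th17_23, a log2 difference of -0.80 (SE 0.12, adjusted p = 0.00059). Psma3 was 67.4 and 72.8 FPKM in Th17_b and 114 and 128 FPKM in Th17_23, a difference of -0.78 (SE 0.14, adjusted p = 0.0011). In both genes the Th17_b libraries lay below those of Th0, at 148 and 139 FPKM for Psma6 and 93.3 and 96.9 FPKM for Psma3. Psma1 and Psma5 were also lowest in iTreg and highest in Th17_23: Psma1 ran from 85.2 FPKM in an iTreg library to 144 FPKM in a Th17_23 library, and Psma5 from 54.0 to 113 FPKM.

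Psma4 (α3), whose N-terminal tail helps to close the gate of the core, departed from the other α genes in IL27_plus_TGF_beta. It was 294 and 281 FPKM there, against 132 and 135 FPKM in Th0, 143 and 117 FPKM in Th1, 132 and 117 FPKM in Th2, 80.7 and 90.4 FPKM in iTreg, 122 and 135 FPKM in Th17_b, and 161 and 171 FPKM in Th17_23. The IL27_plus_TGF_beta libraries lay above all 12 others. The change was 1.10 from Th0 (SE 0.11, adjusted p = 2.6e-05), 1.16 from Th17_b (SE 0.11, adjusted p = 2.6e-05) and 1.74 from iTreg (SE 0.11, adjusted p = 9.4e-07). Relative to the median of the other 6 α genes of the same library, Psma4 stood at 2.29 and 2.10 in IL27_plus_TGF_beta and between 0.936 and 1.17 in the other 12 libraries. The α gene next in size of change from Th0 was Psma2 (α2), with 233 and 221 FPKM against 190 and 167 FPKM; its Th1 replicate 1 reached 226 FPKM. In a later mouse annotation Psma4 overlaps AY074887, which held 0.195 to 1.36 FPKM; the sources used here do not say whether counting used strand.

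**Figure D4:**
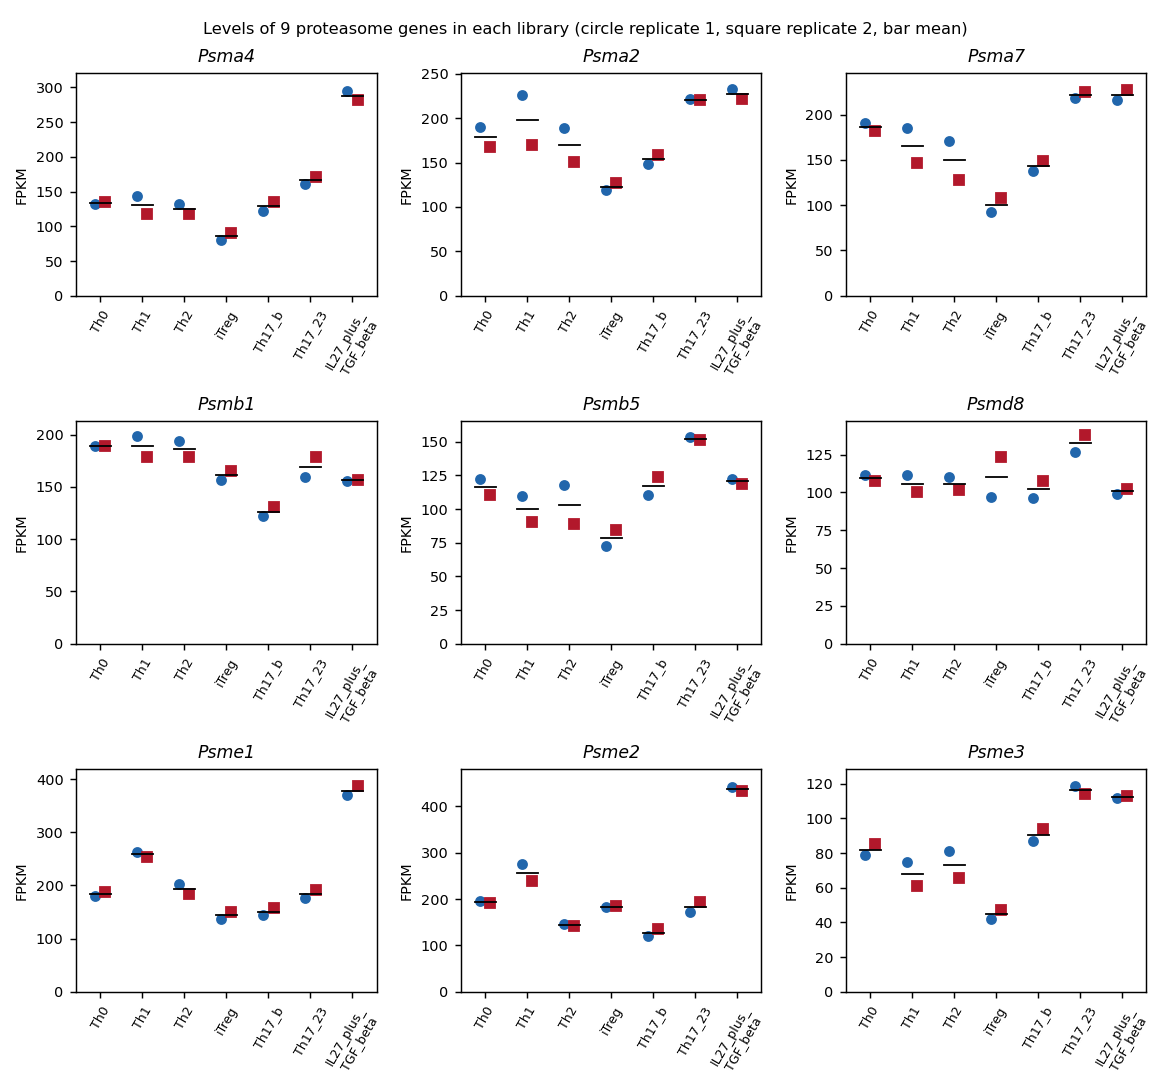
FPKM of 9 genes in each library by medium, with replicate 1 as a circle, replicate 2 as a square and the mean as a bar. Psma4, Psme1 and Psme2 are highest in IL27_plus_TGF_beta with no overlap, Psma2, Psma7 and Psme3 are lowest in iTreg, Psmb1 is lowest in Th17_b, and Psmd8 is nearly level.

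Among the β subunits, the catalytic ones were lowest in iTreg and highest in Th17_23, like most members. Psmb5 (β5, the chymotrypsin-like site) was 122 and 111 FPKM in Th0, 72.4 and 84.4 FPKM in iTreg, 153 and 151 FPKM in Th17_23 and 123 and 119 FPKM in IL27_plus_TGF_beta. Psmb6 (β1, the caspase-like site) was 89.1 and 89.0 FPKM in Th0, 54.1 and 63.4 FPKM in iTreg, 99.1 and 102 FPKM in Th17_23 and 92.0 and 92.6 FPKM in IL27_plus_TGF_beta. Psmb7 (β2, the trypsin-like site) was 147 and 139 FPKM in Th0, 87.0 and 108 FPKM in iTreg, 174 and 196 FPKM in Th17_23 and 135 and 143 FPKM in IL27_plus_TGF_beta. In Th17_23 against Th0 limma called the log2 rises of Psmb5 (0.38, adjusted p = 0.041) and Psmb7 (0.37, adjusted p = 0.027). It did not call that of Psmb6 (0.17, adjusted p = 0.20). All 3 catalytic genes had iTreg libraries below and Th17_23 libraries above those of Th0. They fell from Th0 to iTreg by 0.57 (SE 0.14, adjusted p = 0.0050), 0.60 (SE 0.10, adjusted p = 0.00076) and 0.55 (SE 0.12, adjusted p = 0.0029) on the log2 scale; the call of Psmb5 was lost without iTreg replicate 1 (adjusted p = 0.054).

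Psmb1 (β6, a subunit with no proteolytic site) did not share that lowest and highest medium. It was 189 and 189 FPKM in Th0, 157 and 165 FPKM in iTreg, 122 and 131 FPKM in Th17_b, 159 and 178 FPKM in Th17_23 and 156 and 157 FPKM in IL27_plus_TGF_beta. The Th17_b libraries were the lowest of the 14, and those of Th17_23 lay below Th0. Psmb1 fell by 0.58 from Th0 to Th17_b (SE 0.082, adjusted p = 0.00027) and by 0.27 to IL27_plus_TGF_beta (SE 0.082, adjusted p = 0.020), the last call being lost without any 1 of the 4 libraries (adjusted p 0.076 to 0.093). It was the only constitutive β gene called lower in IL27_plus_TGF_beta. Psmb2, Psmb3 and Psmb4, also without a site, were lowest in iTreg and highest in Th17_23.

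The constitutive sites are replaced by their inducible counterparts in newly built cores when both are made, so their ratio is given per library. Psmb6 over Psmb9 was 0.880 and 0.757 in Th0, 0.451 and 0.383 in Th1, 0.298 and 0.282 in IL27_plus_TGF_beta, 1.42 and 1.20 in Th17_b and 1.52 and 1.35 in Th17_23. IL27_plus_TGF_beta was lowest, Th1 next, and both lay below every other library. Psmb9 itself held 309 and 329 FPKM in IL27_plus_TGF_beta, 206 and 215 FPKM in Th1, 101 and 118 FPKM in Th0 and 48.4 and 62.2 FPKM in Th17_b, with no overlap between these media. It rose from Th0 to Th1 by 0.94 (SE 0.093, adjusted p = 0.00029) and was higher in IL27_plus_TGF_beta than in Th17_b by 2.52 (SE 0.093, adjusted p = 6.0e-08).

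The other pairs had another order. Psmb5 over Psmb8 was highest in Th17_b, at 1.32 and 1.08, then in Th17_23, at 1.01 and 0.880, and lowest in Th1, at 0.409 and 0.351; in IL27_plus_TGF_beta it was 0.532 and 0.466, beside 0.555 and 0.427 in Th0. Psmb7 over Psmb10 stayed between 4.17 and 6.70 in all libraries, and the replicates of Th1 alone covered 5.49 to 4.17. No test was made on these ratios.

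**Figure D5:**
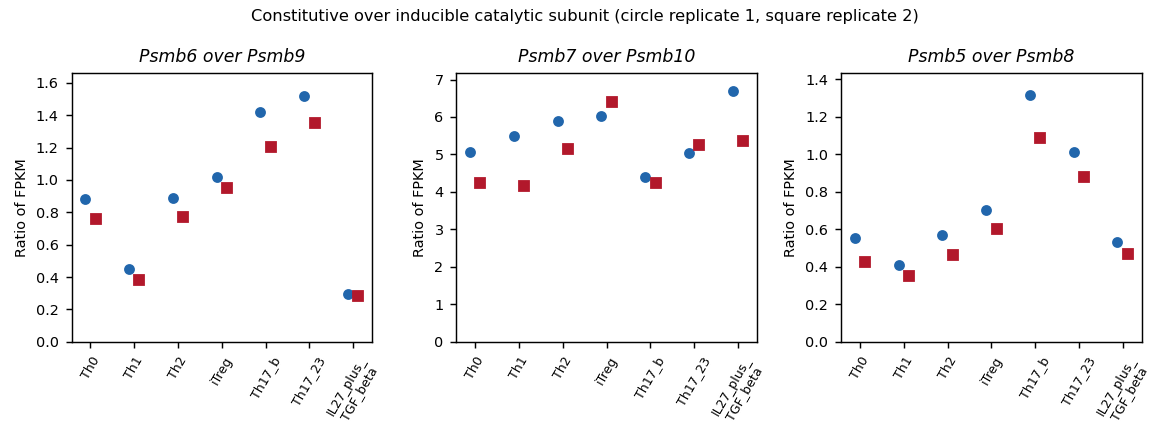
Ratio of the FPKM of each constitutive catalytic subunit to that of its inducible counterpart in each library, with replicate 1 as a circle and replicate 2 as a square. Psmb6 over Psmb9 is lowest in IL27_plus_TGF_beta and Th1, Psmb5 over Psmb8 is highest in Th17_b, and Psmb7 over Psmb10 overlaps between most media.

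In the base of the 19S particle, the 6 ATPases fell together in iTreg, by 0.27 to 0.37 on the log2 scale, and 5 of 6 rose in Th17_23. Psmc5 (Rpt6) was 68.6 and 66.3 FPKM in Th0, 55.2 and 52.9 FPKM in iTreg, 82.2 and 90.1 FPKM in Th17_b, 92.5 and 95.5 FPKM in Th17_23 and 92.0 and 92.5 FPKM in IL27_plus_TGF_beta. All 3 media with IL-6 or IL-27 lay above Th0, and iTreg lay below it, near Th1 and Th2 replicate 2 at 52.8 and 51.1 FPKM. Psmc5 rose by 0.45 in IL27_plus_TGF_beta (SE 0.12, adjusted p = 0.013) and by 0.35 in Th17_b (SE 0.12, adjusted p = 0.037). The first call was lost without Th0 replicate 1 or IL27_plus_TGF_beta replicate 2. The second was lost without Th0 replicate 1, Th0 replicate 2 or Th17_b replicate 2. Psmc6 (Rpt4) took another course, with 67.3 and 65.3 FPKM in Th0, 48.9 and 51.3 FPKM in Th17_b and 50.1 and 52.9 FPKM in iTreg.

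Of the scaffold subunits of the base, Psmd1 (Rpn2) was 46.5 and 40.0 FPKM in Th0, 25.9 and 29.9 FPKM in iTreg and 63.0 and 66.6 FPKM in Th17_23. Its rise in Th17_23 of 0.57 (SE 0.14, adjusted p = 0.0071) was not called without Th0 replicate 2 (adjusted p = 0.061) or Th17_23 replicate 2 (adjusted p = 0.064). Psmd2 (Rpn1) held the same order, from 61.3 FPKM in an iTreg library to 125 FPKM in both Th17_23 libraries. Psmd4 (Rpn10), a ubiquitin receptor that also occurs free of the proteasome, was far flatter, with 67.5 and 72.2 FPKM in iTreg, 75.6 and 69.6 FPKM in Th0 and 86.4 and 93.1 FPKM in Th17_23.

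The lid, which removes ubiquitin chains, held the largest rise of any member in Th17_23 on the log2(FPKM + 1) scale; as a ratio of mean FPKM the assembly chaperone Psmd9, at 1.64, was above it. Psmd7 (Rpn8), the partner of the deubiquitinase, was 57.6 and 67.3 FPKM in Th0, 34.1 and 42.3 FPKM in iTreg and 94.6 and 100 FPKM in Th17_23, a ratio of 1.56. The 3 media did not overlap, and the rise in Th17_23 was 0.64 (SE 0.14, adjusted p = 0.0054; 0.055 without Th0 replicate 1). Psmd14 (Rpn11), the deubiquitinase itself, was 74.1 and 71.8 FPKM in Th0, 45.9 and 47.4 FPKM in iTreg, 51.3 and 55.1 FPKM in Th17_b and 83.1 and 90.4 FPKM in Th17_23. Its difference between Th17_b and Th17_23 was -0.69 (SE 0.087, adjusted p = 0.00016). Psmd3 (Rpn3) ran from 42.7 FPKM in an iTreg library to 103 FPKM in a Th17_23 library. Psmd8 (Rpn12) was 112 and 108 FPKM in Th0, 97.2 and 124 FPKM in iTreg, and 127 and 138 FPKM in Th17_23, so the iTreg replicates alone spanned much of its range.

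Assembly chaperones help to build the core and the base and are not part of the finished particle. Psmg2 (PAC2), which with Psmg1 guides the α ring, had the largest fall of any proteasome gene in iTreg: 13.2 and 18.2 FPKM against 35.4 and 41.5 FPKM in Th0, a change of -1.25 (SE 0.16, adjusted p = 0.00014). Every other library held 26.0 FPKM or more. Psmg4 (PAC4) had another order, with 48.0 and 55.3 FPKM in Th0, 28.3 and 33.2 FPKM in Th17_b, 40.0 and 31.0 FPKM in Th2, and 57.5 and 58.6 FPKM in IL27_plus_TGF_beta. It fell by 0.73 in Th17_b (SE 0.13, adjusted p = 0.0012), and it was higher in IL27_plus_TGF_beta than in Th17_b by 0.90 (SE 0.13, adjusted p = 0.00051). Its fall of 0.54 in Th2 (adjusted p = 0.021) was not called without Th2 replicate 2 or either Th0 library (adjusted p 0.055 to 0.16), nor in a fit of the compared media alone (adjusted p = 0.14).

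The chaperones of the base did not move alike. Psmd9 (p27) was 5.91 and 5.92 FPKM in Th0, 7.79 and 7.80 FPKM in Th17_b and 9.77 and 9.56 FPKM in Th17_23, and stayed at 5.21 and 5.65 FPKM in iTreg. Its rise was 0.63 in Th17_23 (SE 0.12, adjusted p = 0.0023) and 0.35 in Th17_b (SE 0.12, adjusted p = 0.033), the latter being lost without any 1 of the 4 libraries (adjusted p 0.070 to 0.17) and, like that of Psmc5, with no filter on low genes (adjusted p = 0.074 and 0.072). Psmd10 (gankyrin) was 18.7 ± 0.36 FPKM (SD, n = 2) in Th0, 12.9 and 14.1 FPKM in Th17_b and 15.5 and 15.0 FPKM in IL27_plus_TGF_beta. Its fall of 0.28 in IL27_plus_TGF_beta (SE 0.086, adjusted p = 0.021) was lost without any 1 of the 4 libraries (adjusted p 0.064 to 0.12).

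The nuclear activators went separate ways. Psme3 (PA28γ), which opens the core without ubiquitin, was 79.0 and 85.0 FPKM in Th0, 42.0 and 47.1 FPKM in iTreg, 118 and 114 FPKM in Th17_23 and 112 and 113 FPKM in IL27_plus_TGF_beta. The iTreg libraries were the lowest of the 14 and those of Th17_23 and IL27_plus_TGF_beta the highest. It fell by 0.87 in iTreg (SE 0.12, adjusted p = 0.00021) and was higher in IL27_plus_TGF_beta than in iTreg by 1.31 (SE 0.12, adjusted p = 1.1e-05). Its rises of 0.50 in Th17_23 (adjusted p = 0.0075) and 0.45 in IL27_plus_TGF_beta (adjusted p = 0.011) were not called without Th0 replicate 1 (adjusted p = 0.069 and 0.096), nor was the latter without IL27_plus_TGF_beta replicate 2 (adjusted p = 0.077). Psme4 (PA200), a large activator, held 15.5 to 19.7 FPKM in all 14 libraries, with 16.4 and 15.5 FPKM in Th0, 19.7 and 18.3 FPKM in Th17_b and 18.5 ± 0.68 FPKM (SD, n = 2) in IL27_plus_TGF_beta. Both media lay above Th0, and Psme4 rose by 0.24 in Th17_b (SE 0.060, adjusted p = 0.0077) and by 0.20 in IL27_plus_TGF_beta (SE 0.060, adjusted p = 0.017). The first call was lost without Th0 replicate 2 or Th17_b replicate 1 (adjusted p = 0.052 and 0.060), the second without any 1 of the 4 libraries (adjusted p 0.057 to 0.092), and both in a fit of the compared media alone (adjusted p = 0.053 each). Psmf1 (PI31), which binds the core and was named as its inhibitor, ran from 8.18 to 12.7 FPKM.

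Psmc3ip, the recombination factor that is not a proteasome subunit, had the largest fall of all in iTreg. It was 3.72 and 5.28 FPKM there, 13.5 and 13.9 FPKM in Th0, 8.11 and 9.87 FPKM in Th17_b and 12.9 and 13.4 FPKM in Th17_23. The change from Th0 was -1.43 (SE 0.15, adjusted p = 4.3e-05).

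Psme1 and Psme2, the genes of PA28αβ, did not follow the core. Both were highest in IL27_plus_TGF_beta, then in Th1, and neither was called in Th17_23, where most of the 19S genes rose. Psme1 was 370 and 386 FPKM in IL27_plus_TGF_beta, 263 and 254 FPKM in Th1, 180 and 188 FPKM in Th0, 202 and 185 FPKM in Th2, 177 and 191 FPKM in Th17_23, 143 and 158 FPKM in Th17_b and 137 and 150 FPKM in iTreg. Psme2 was 441 and 433 FPKM in IL27_plus_TGF_beta, 276 and 238 FPKM in Th1, 196 and 192 FPKM in Th0, 182 and 185 FPKM in iTreg, 171 and 193 FPKM in Th17_23, 146 and 143 FPKM in Th2 and 120 and 135 FPKM in Th17_b. The libraries of IL27_plus_TGF_beta lay above all others, and those of Th1 above all but these.

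Against Th0, Psme1 rose by 1.03 in IL27_plus_TGF_beta (SE 0.076, adjusted p = 4.3e-06) and by 0.49 in Th1 (SE 0.076, adjusted p = 0.0037). Psme2 rose by 1.17 (SE 0.091, adjusted p = 5.9e-06) and by 0.40 (SE 0.091, adjusted p = 0.020). Both fell in Th17_b, Psme2 by 0.60 (adjusted p = 0.00038) and Psme1 by 0.29. Psme2 fell by 0.42 in Th2 (adjusted p = 0.011), where Psme1 was at 0.07 and not called, and Psme1 fell by 0.36 in iTreg, where Psme2 was at -0.08 and not called; the differences between the genes were not tested. Set against Th17_b, IL27_plus_TGF_beta was higher by 1.32 for Psme1 (adjusted p = 1.1e-06) and by 1.77 for Psme2 (adjusted p = 5.4e-07), and against iTreg by 1.39 (adjusted p = 4.4e-07) and 1.24 (adjusted p = 2.6e-06). The Th1 rise of Psme2 was not called without Th1 replicate 1 or either Th0 library (adjusted p 0.099 to 0.14), its fall in Th2 not without Th2 replicate 2 or either Th0 library (adjusted p 0.058 to 0.084), and a fit of the compared media alone called neither of these nor the Th1 rise of Psme1 (adjusted p 0.051 to 0.10).

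The mean of Psme1 and Psme2 over the median of the 7 α genes was 3.12 and 2.95 in IL27_plus_TGF_beta, 1.90 and 2.09 in Th1, 1.88 and 1.86 in iTreg, 1.42 and 1.41 in Th0 and 1.08 and 1.12 in Th17_23. It was lowest in Th17_23 and above Th0 in iTreg, where the α genes were low. For Psme2 the tables list 2 transcripts, of which the less abundant held 101 and 103 FPKM in IL27_plus_TGF_beta against 46.6 and 51.3 FPKM in Th0, while the other held 340 and 330 FPKM against 150 and 140 FPKM.

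Promoters are shown for the 3 genes that stood out in IL27_plus_TGF_beta, beside that of Psmb5, which stayed at its Th0 level there. Each window holds 250 bases before the start of transcription and the 30 bases from it on, from RefSeq's GRCm38.p6. Capitals mark GAAA, any 2 bases and GAAA again, the pattern of interferon-stimulated elements, in Psme1, Psme2 and Psma4, and TGACNNNGC, the core of the antioxidant response element, in Psmb5, on either strand. Psme1 is at chr14:55578244-55578523 on the plus strand, Psme2 at chr14:55591072-55591351 on the minus strand, Psma4 at chr9:54950609-54950888 on the plus strand and Psmb5 at chr14:54617966-54618245 on the minus strand.
Psme1: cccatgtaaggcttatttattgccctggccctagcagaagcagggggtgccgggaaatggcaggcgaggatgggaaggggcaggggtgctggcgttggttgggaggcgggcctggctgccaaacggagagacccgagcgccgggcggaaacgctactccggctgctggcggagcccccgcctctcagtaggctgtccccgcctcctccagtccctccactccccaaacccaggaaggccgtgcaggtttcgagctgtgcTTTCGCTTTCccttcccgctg
Psme2: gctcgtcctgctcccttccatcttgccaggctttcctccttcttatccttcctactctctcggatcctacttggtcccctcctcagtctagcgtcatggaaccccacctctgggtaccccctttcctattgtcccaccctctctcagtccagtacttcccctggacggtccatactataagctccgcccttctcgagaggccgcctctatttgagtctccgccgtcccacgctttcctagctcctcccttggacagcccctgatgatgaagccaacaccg
Psma4: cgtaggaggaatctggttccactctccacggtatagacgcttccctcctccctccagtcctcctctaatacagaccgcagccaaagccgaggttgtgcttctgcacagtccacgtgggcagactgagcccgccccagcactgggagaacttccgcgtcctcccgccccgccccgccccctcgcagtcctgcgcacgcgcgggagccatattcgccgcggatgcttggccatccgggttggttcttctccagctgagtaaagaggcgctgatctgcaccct
Psmb5: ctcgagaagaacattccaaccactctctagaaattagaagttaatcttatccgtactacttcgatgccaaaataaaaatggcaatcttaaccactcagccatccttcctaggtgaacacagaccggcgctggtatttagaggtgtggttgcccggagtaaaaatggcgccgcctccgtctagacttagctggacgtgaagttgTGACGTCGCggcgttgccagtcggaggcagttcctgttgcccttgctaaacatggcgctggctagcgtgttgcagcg

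Psme1 holds 1 match to the interferon-stimulated pattern, which starts at base 10 of the transcript on the opposite strand. Neither Psme2 nor Psma4 holds these letters in its window, and Psmb5 holds 1 match to TGACNNNGC, starting 47 bases before the start of transcription. Of the 44 genes, 37 had a window, 40 windows in all. The interferon-stimulated pattern was in 12.5% of these and in 3.28% of the 32851 windows of all genes; the members with it were Psmb3, Psmd4, Psmd9, Psme1 and Psmg4, and of these Psme1 alone was called higher in IL27_plus_TGF_beta. TGACNNNGC was in 15% of the windows of members and in 11.5% of all windows, TTCNNNGAA, a pattern of STAT dimers, in 5% and 7.83%, and CCAAT in 32.5% and 36.1%. A match describes letters and is not a bound site.

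Genes that act beside the proteasome were counted from 6 lists, each set beside the share of all tested genes called. Among 11 genes of the inducible subunits and of class I presentation, 9 rose and 1 fell in IL27_plus_TGF_beta against Th0, with a median change of 1.44, where 22% of all tested genes rose and 28.9% fell, and 7 rose in Th1 with a median of 0.66, where 6.41% of all did. In iTreg 8 of the 11 fell and 2 rose, beside 41% and 22.7% of all tested genes. Those genes share interferon control with Psme1 and Psme2 as background, and the list holds Psmb9, whose values stand above.

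Of 19 factors that bind the proteasome or help to build it, 12 fell and 2 rose in iTreg, with a median of -0.36, beside 41% and 22.7% of all tested genes. In Th17_23 6 rose and 1 fell, beside 26.6% and 23%, so the rises were near the background. Pomp, which matures the core, was 107 and 122 FPKM in iTreg, 209 and 193 FPKM in Th0 and 244 and 249 FPKM in IL27_plus_TGF_beta, a difference of 1.10 between the last and iTreg (SE 0.13, adjusted p = 5.8e-05). Uchl5, a deubiquitinase of the 19S particle, was 13.7 and 15.2 FPKM in iTreg, 30.3 and 26.9 FPKM in Th0 and 45.0 and 44.2 FPKM in Th17_23, a rise of 0.63 in the last (SE 0.14, adjusted p = 0.0047). Usp14, its other deubiquitinase, was lower in Th17_b than in Th17_23 by 0.66 (SE 0.12, adjusted p = 0.0016), at 14.6 and 15.6 against 23.2 and 25.7 FPKM. All 3 genes were called lower in iTreg than in Th0. In Th17_23 limma called Pomp (0.47, adjusted p = 0.014) and Uchl5 higher than in Th0, but not Usp14 (0.18, adjusted p = 0.25). Other factors of the list went the other way. The 2 that rose in iTreg were Ddi2 (0.73) and Zfand5 (0.34), and the 1 that fell in Th17_23 was Zfand2b (-0.44).

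Of 8 regulators of proteasome transcription, 4 rose and 3 fell in iTreg, beside 22.7% and 41% of all tested genes, and 3 rose and 2 fell in Th17_23, beside 26.6% and 23%. Nfe2l1, which codes for the factor that raises proteasome genes when the proteasome is impaired, was 35.1 and 39.4 FPKM in Th0, 22.8 and 33.6 FPKM in iTreg, 18.9 and 21.2 FPKM in Th17_b and 28.6 and 32.2 FPKM in Th17_23. It was lower in Th17_b than in Th17_23 by 0.58 (SE 0.092, adjusted p = 0.00066). Ngly1, the glycanase that processes this factor, fell in iTreg and in Th17_23 alike, from 32.0 and 33.0 FPKM in Th0 to 13.1 and 15.0 FPKM and to 13.0 and 15.0 FPKM, by 1.16 in each (SE 0.076, adjusted p = 3.1e-06 and 4.2e-06). Ddi2, the protease that releases it, was 15.9 ± 1.43 FPKM (SD, n = 2) in Th0 and 27.1 ± 0.043 FPKM in iTreg, a rise of 0.73 (SE 0.083, adjusted p = 6.7e-05). None of these 3 genes had the order of the subunits over iTreg, Th0 and Th17_23.

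Of 15 genes that supply ubiquitin or work with the segregase p97, 4 rose and 6 fell in iTreg, beside 22.7% and 41% of all tested genes. In Th17_23 5 rose and 4 fell, beside 26.6% and 23%, and in Th17_b 5 rose and 4 fell, beside 25.5% and 29.2%, which is near the background. Uba1, the main ubiquitin-activating enzyme, was 165 and 149 FPKM in Th0, 196 and 229 FPKM in iTreg, 304 and 309 FPKM in Th17_23 and 436 and 402 FPKM in Th17_b, where it rose by 1.41 (SE 0.096, adjusted p = 2.5e-06). Of 12 tested genes of proteotoxic and oxidative stress, 1 rose and 8 fell in iTreg, with a median of -0.38, beside 22.7% and 41% of all tested genes. In Th17_23 6 rose and 3 fell, beside 26.6% and 23%.

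The chaperonin that folds actin and tubulin, a large cytosolic complex with no part in the proteasome, was counted for comparison. All 8 genes fell in iTreg, with a median of -0.77, where 41% of all tested genes fell, and 5 fell in Th17_b, where 29.2% did. In Th17_23 3 rose, where 26.6% of all did, and all 8 were lower in Th17_b than in Th17_23, where 32.5% were. Cct7 was 83.4 and 106 FPKM in iTreg against 162 and 174 FPKM in Th0, a change of -0.83 (SE 0.11, adjusted p = 0.00013). Cct6a was 196 and 188 FPKM in Th17_23 against 120 and 115 FPKM in Th0, a rise of 0.70 (SE 0.15, adjusted p = 0.0038). Genes outside the proteasome thus fell in iTreg as well.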

How the data were processed

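RNA of 14 libraries was measured. Libraries were prepared from total RNA with a TruSeq kit, per the labels' protocols. The submitters' processing notes name mm9, Cufflinks 1.3.0 and TopHat2 2.0.3 without saying what each did. The FPKM were deposited by the authors in 2 tables, with replicate 1 of every medium in 1 table and replicate 2 in the other. How the tables were scaled, strand, and the treatment of shared reads are not given in the sources used here, so overlapping and near-identical genes are uncertain.

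Each table held 30028 transcripts, of which 96.7% were named by RefSeq accession from a later annotation (GRCm38.p6, names only) and 980 by the table's symbol. FPKM were summed per gene, and those that reached a mean of 1 FPKM in some medium were tested. FPKM carry no read totals; relative depth was read from low values (at or under 0.15 FPKM) that lie on whole-read steps, within 1%.

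limma 3.58.1 in R 4.3.3 was fitted to log2(FPKM + 1) of all 14 libraries, with 7 media and the table as a block, and a mean-variance trend; fold changes on this scale understate those of low genes. This left 6 residual and 3.42 prior degrees of freedom. P-values are two-sided, with Benjamini-Hochberg adjustment over the 11451 tested genes, and called under 0.05. The 9 comparisons were the 6 media against Th0, IL27_plus_TGF_beta against Th17_b and iTreg, and Th17_b against Th17_23; those against Th0 share its libraries. The procedure was tested on simulated data.

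The named genes are the called members with the 3 largest rises and falls in a comparison, the catalytic subunits, the activators, Psmc3ip, the 5 members with the smallest p over the media, and up to 4 genes of each list with the smallest p; a part of them is printed. Other members are named with levels only. Members and lists were chosen with earlier results of these data known. Alternatives were no block, a pseudocount of 0.1, no filter, quantile normalization, median scaling, the highest transcript of a gene, the compared media alone, and leaving out each library. The identity of the PA28 proteins was not analysed here.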

Additional observations from a re-analysis of the deposited data

How the results depend on the processing

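Over the alternatives, 41 of 42 members differing over the media became 38 to 42, and none of the 54 named changes reversed. The median change of the members in Th1, -0.04 with 17 members positive and 25 negative, was 0.00 under quantile normalization, with 21 and 21. Leaving out libraries in turn gave these lowest and highest counts: iTreg against Th0, 24 to 35 lower; Th17_23 against Th0, 8 to 17 higher; Th17_b against Th0, 0 to 1 higher and 5 to 10 lower; Th17_b against Th17_23, 16 to 36 lower; IL27_plus_TGF_beta, 1 to 4 higher and 0 lower against Th0, 2 to 7 higher against Th17_b, and 28 to 36 higher and 0 to 1 lower against iTreg; Th2, 0 to 5 lower. With no filter, 1 member was higher in Th2, 1 in Th17_b against Th0 and 1 in Th17_b against Th17_23. Quantile normalization gave 1 higher and 2 lower in Th2, 2 higher in iTreg, 6 higher in Th17_b, 2 lower in Th17_23, 12 higher and 4 lower in IL27_plus_TGF_beta, 2 lower in IL27_plus_TGF_beta against iTreg and 1 higher in Th17_b against Th17_23. Median scaling gave 1 higher in Th2, 1 higher in iTreg, 2 lower in Th17_23 and 13 higher in IL27_plus_TGF_beta. The compared media alone gave 0 lower in Th2, 1 lower in Th17_23, 10 higher and 6 lower in IL27_plus_TGF_beta against Th0 and 24 higher against Th17_b. The cause of these moves was not tested. The share of all tested genes called in each of these fits is not given, so the moves cannot be read as particular to the members. Same-numbered libraries did not deviate together in every pair of media (21 pairs, r from -0.14 to 0.36, over 0.1 in 15), so the numbers are taken as table numbers; with no replicate block 35 members were lower in iTreg than in Th0, 40 differed over the media, and no other count moved by more than 1. Of the 54 named changes, 37 kept their call under every alternative run and 17 lost it under at least 1. With 2 libraries a medium, a change that was not called may still be present, and depth in reads is unknown.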
